A study of Oryza sativa with 12 samples.

Results

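The 100 genes described here were the ones whose messenger RNA level differed least among 12 rice leaf libraries. They were taken from 4119 gene IDs starting with BGIOSGA that had a mean level of 50 to 500 CPM. CPM is the read count per 1000000 reads assigned to genes, after correction of library sizes by TMM, the trimmed mean of M-values. Within that window the 100 IDs with the lowest coefficient of variation (CV, the standard deviation over the mean of the 12 libraries) were taken, out of 21381 IDs that passed the filter on low counts. The CV of the TMM-scaled levels chose the members, so their low spread and their small differences between treatments follow from that choice and are given as descriptions without a test.

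The leaves were those of TU100, a hybrid rice of the indica type, at an age of 1 month. Each treatment had 3 libraries. The treatments were azoxystrobin, VdAL, VdAL together with azoxystrobin (called the combination), and water. Azoxystrobin, a fungicide of the strobilurin class, stops mitochondrial respiration at complex III. The labels do not spell out VdAL. All plants were of the same hybrid and age, and the labels speak of 4 growing areas without assigning plants to them, so that treatment and area cannot be told apart here. Since the labels do not say whether replicate libraries stem from separate plants, the spread between them may be technical.

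Genes with steady transcript levels are used as internal standards, for example as reference genes in quantitative PCR, where the level of a target is read relative to theirs. Scaling methods for RNA sequencing rest on a related premise, that most genes do not change between samples. Steady genes are often housekeeping genes for protein synthesis, protein turnover, the cytoskeleton or central metabolism. No names come with the IDs in the files. In a table of 39387 japonica rice genes 0 of the 100 members were found, and 0 of the IDs as a whole. A list of commonly used rice reference genes and a short list of leaf markers therefore had 0 members that could be looked up, the leaf label was not checked against markers, and no function is stated for any ID.

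Reads assigned to genes ranged from 6444650 to 10144564 per library. The reads not aligned uniquely made up 9.01% to 22.4% of the reads recorded, the lowest in water replicate 3 and the highest in VdAL replicate 1. TMM factors lay between 0.926 and 1.05. In bulk leaf RNA, fewer cells of a type and less RNA per cell cannot be told apart.

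The members had a median CV of 5.51%, with the lowest at 2.83% and the highest at 6.13%. The other 4019 IDs in the window had a median CV of 13.0%. For 31 members the CV was under 5%. Between its highest and its lowest library a member differed by 1.104-fold to 1.26-fold, with a median of 1.20-fold, and the median among the other IDs was 1.54-fold. In 41 members every one of the 12 libraries lay within 10% of the member's mean, and in 98 within 15%.

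Read counting set part of this spread. The read count of a member in a library ran from 308 to 4920. A gene with no variation other than counting would have shown a CV of 1.67% to 5.04% at the members' levels, with a median of 3.30%. The members' own CV was a median of 1.63 times that counting CV, against 3.49 times in the other IDs. Once the counting variance was subtracted, the median CV was 4.22% in the members and 12.3% in the other IDs. The CV was at or below the counting CV in 3 members and in 0 of the other IDs, and the 3 all had mean levels under 100 CPM.

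**Figure D1:**
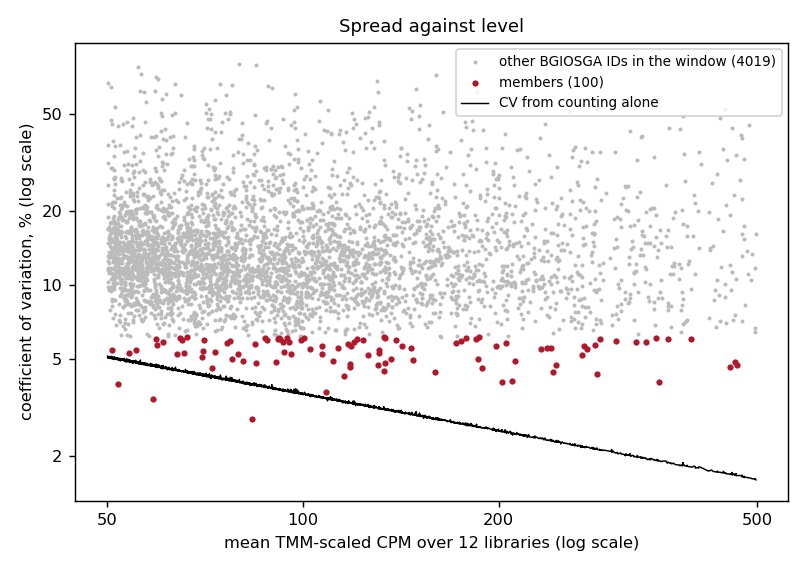
Coefficient of variation over the 12 libraries against mean TMM-scaled CPM, both on log axes, for the 100 members (red) and the other 4019 BGIOSGA IDs in the window (grey), with the CV that counting alone would give (line). The members fill the lower edge below 6.13%, and the distance to the counting line widens towards high levels.

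Members lay at all levels of the window, with a median mean level of 119 CPM against 86.5 CPM in the other IDs. Of 520 IDs at 200 to 500 CPM, 25 were members, or 4.81%. At 100 to 200 CPM they were 37 of 1154 IDs, or 3.21%, and at 50 to 100 CPM they were 38 of 2445 IDs, or 1.55%. The median CV of the members was 5.49%, 5.53% and 5.56% in these classes, and that of the other IDs was 13.0% in each. The counting CV of the members differed more between the classes, at 2.15%, 3.14% and 4.10%.

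BGIOSGA003036 had the lowest CV, 2.83%, below its counting CV of 3.94%. Its levels were 84.5, 85.7 and 82.6 CPM with azoxystrobin, 82.1, 83.7 and 87.2 CPM with VdAL, 78.1, 83.7 and 84.6 CPM with the combination, and 83.8, 80.8 and 84.6 CPM with water. The 4 treatments overlapped, and the treatment means differed by at most 1.03-fold. It also held the lowest CV in each of 12 lists that were made on 11 libraries, leaving out each library in turn. In the library left out it deviated from its level in the others by −0.10 to 0.07 on the log2 scale, the lowest value being that of combination replicate 1. Each list reused 11 of the 12 libraries that gave this gene the lowest CV. Its rank and its deviations there follow from that choice and are descriptions only.

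BGIOSGA026323 followed with a CV of 3.41%. It stood at 56.4, 59.9 and 60.0 CPM with azoxystrobin, 60.4, 56.4 and 63.1 CPM with VdAL, 58.1, 57.8 and 59.6 CPM with the combination, and 58.0, 60.4 and 56.7 CPM with water. VdAL held both its highest library and its lowest.

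BGIOSGA012825, with a CV of 3.65%, had levels of 104, 111 and 105 CPM with azoxystrobin, 114, 111 and 106 CPM with VdAL, 112, 110.1 and 113 CPM with the combination, and 103, 110.5 and 103 CPM with water. Its highest and lowest libraries differed by 1.104-fold, the narrowest range of the 100. BGIOSGA033221 lay near the lower edge of the window with a CV of 3.93%. Its levels were 52.8, 52.4 and 49.4 CPM with azoxystrobin, 51.1, 52.1 and 55.8 CPM with VdAL, 51.5, 48.6 and 54.3 CPM with the combination, and 51.3, 50.8 and 53.9 CPM with water. At that level its counting CV was 4.98%, so the libraries varied less than counting would give on average.

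A pair of more abundant members showed steadiness with less room for counting error. BGIOSGA006806 had a CV of 4.02%, with 201, 212 and 196 CPM with azoxystrobin, 199, 200.1 and 213 CPM with VdAL, 188, 205 and 194 CPM with the combination, and 211, 212 and 197 CPM with water. Its counting CV was 2.53%, and all treatments overlapped. BGIOSGA037214 had a CV of 4.04% against a counting CV of 1.92%. Its levels were 357, 349.7 and 358 CPM with azoxystrobin, 325, 359 and 346 CPM with VdAL, 342, 378 and 351 CPM with the combination, and 362, 341 and 372 CPM with water. Azoxystrobin libraries were the closest to each other, and the lowest value was that of VdAL replicate 1.

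The member with the lowest mean level was BGIOSGA026149, at 49.1 ± 2.42 CPM with azoxystrobin, 52.5 ± 3.55 CPM with VdAL, 51.3 ± 3.17 CPM with the combination and 50.6 ± 2.09 CPM with water (SD, n = 3 each). The member with the highest was BGIOSGA017455, at 464 ± 18.9 CPM with azoxystrobin, 465 ± 37.1 CPM with VdAL, 453 ± 16.7 CPM with the combination and 476 ± 13.5 CPM with water (SD, n = 3 each). Their CVs were 5.40% and 4.71%. In the middle of the ranking stood BGIOSGA026313, with 273, 272 and 302 CPM with azoxystrobin, 248, 249.9 and 268 CPM with VdAL, 272, 275 and 289 CPM with the combination, and 280.0, 268 and 285 CPM with water. The VdAL libraries were its 3 lowest and did not overlap with another treatment, and its CV was 5.49%. VdAL replicate 3 was barely below water replicate 2, at 267.95 against 267.99 CPM.

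No gap marked the end of the ranking. The last members, BGIOSGA002594 and BGIOSGA026777, both had a CV of 6.13%. The IDs just beyond them, BGIOSGA002543 and BGIOSGA006664, had CVs of 6.15% and 6.17% at mean levels of 163 and 99.2 CPM. BGIOSGA026777 stood at 173, 192 and 201 CPM with azoxystrobin, 187, 170.5 and 177 CPM with VdAL, 177, 189 and 189 CPM with the combination, and 205, 181 and 199.9 CPM with water. Beyond the edges of the window, 17 of 15759 IDs under 50 CPM and 10 of 203 IDs over 500 CPM had a CV at or below 6.13%. Of the 29 IDs starting with EPlOING inside the window, 0 did.

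In each library the members spread in a similar way around their own means. Between 91 and 99 of the 100 members lay within 10% of their mean in a given library, and between 59 and 75 within 5%. The median deviation of the members in a library ran from −0.02 on the log2 scale in water replicate 2 to 0.03 in VdAL replicate 3. VdAL replicate 3 was the highest library for 22 members. Water replicate 3 was the lowest library for 17 members.

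**Figure D2:**
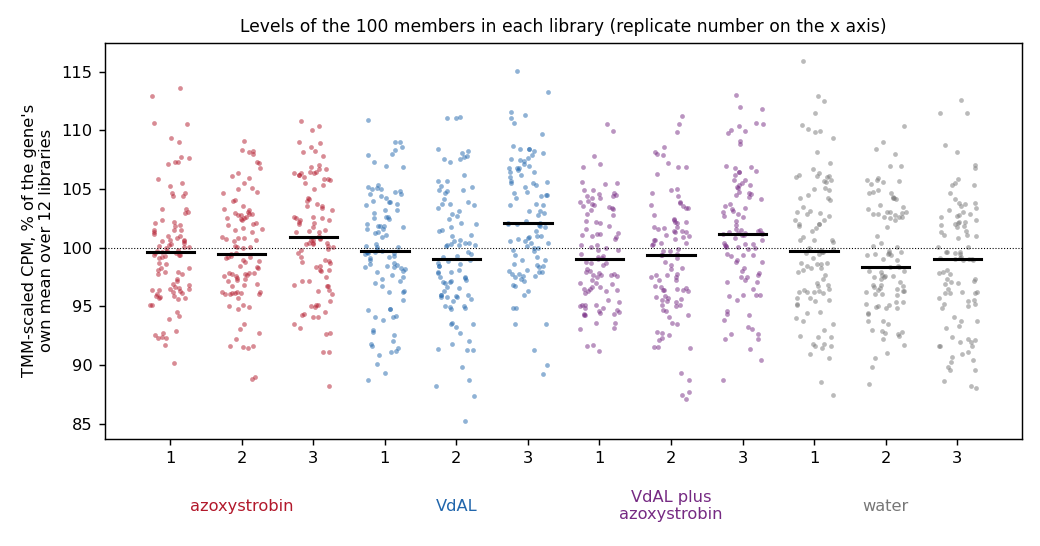
TMM-scaled CPM of each of the 100 members as a percentage of its own mean over 12 libraries (points), by library and treatment, with the median of the 100 members (bar). The medians stay within −0.02 to 0.03 on the log2 scale of the members' means, with VdAL replicate 3 highest and water replicate 2 lowest.

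Within treatments the members' median CV was 4.16% in azoxystrobin, 5.02% in VdAL, 4.28% in the combination and 4.47% in water. The other IDs in the window had medians of 8.74%, 10.9%, 8.10% and 12.1% in the same order of treatments. Libraries of the same treatment still differed beyond counting error in the members. The chi-square of their counts per member was 2.13 to 5.53 in the 12 pairs of libraries within a treatment, and the highest was that of VdAL replicates 1 and 3.

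The means of the 4 treatments differed by 1.02-fold to 1.14-fold between the highest and the lowest, with a median of 1.07-fold, against a median of 1.22-fold in the other IDs. More than 1.1-fold was found in 14 members. VdAL had the highest mean in 34 members, the combination in 26, azoxystrobin in 19 and water in 21. VdAL had the lowest mean in 16 members, the combination in 23, azoxystrobin in 23 and water in 38. Differences between treatments made up a median of 27.8% of the sum of squares of a member, where they hold 27.3% of the degrees of freedom. In the other IDs that median was 42.8%.

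The comparison of each treatment with water was fitted for all 21381 IDs with edgeR's quasi-likelihood test, which called a gene where the Benjamini-Hochberg adjusted p was under 0.05. Of the 100 members 0 were called in azoxystrobin against water, where 2.66% of all IDs tested were called. Of the members 0 were called in VdAL against water, with 3.55% of all IDs called, and 0 in the combination against water, with 1.71% called. The test of any difference among the 4 treatments called 0 members and 3.48% of all IDs, and the interaction of VdAL and azoxystrobin 0 members and 3.8%. The combination against azoxystrobin called 0 members and 0% of all IDs, the combination against VdAL 0 members and 0.0187%, and VdAL against azoxystrobin 0 members and 0%. In each of these edgeR tests 0 members had an unadjusted p under 0.05, and DESeq2, run on the comparisons with water and the 4-treatment test, also called 0 members. The CV over all 12 libraries chose the members, so nothing is read from these counts.

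The sizes of the differences were small on either side of 0. In azoxystrobin against water the members' log2 fold changes ran from −0.15 to 0.18 with a median of 0.01, and 57 members were above 0. In VdAL against water they ran from −0.14 to 0.15 with a median of 0.03, and 62 were above 0. In the combination against water they ran from −0.14 to 0.17 with a median of 0.01, and 61 were above 0. The 3 comparisons share the water libraries, and the median over all tested IDs was −0.02, −0.01 and −0.01. Among the other IDs of the window the median was 0.01, 0.02 and 0.02, above 0 as in the members. The median absolute log2 fold change was 0.05, 0.06 and 0.06 in the members and 0.18, 0.17 and 0.16 in the other IDs of the window.

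**Figure D3:**
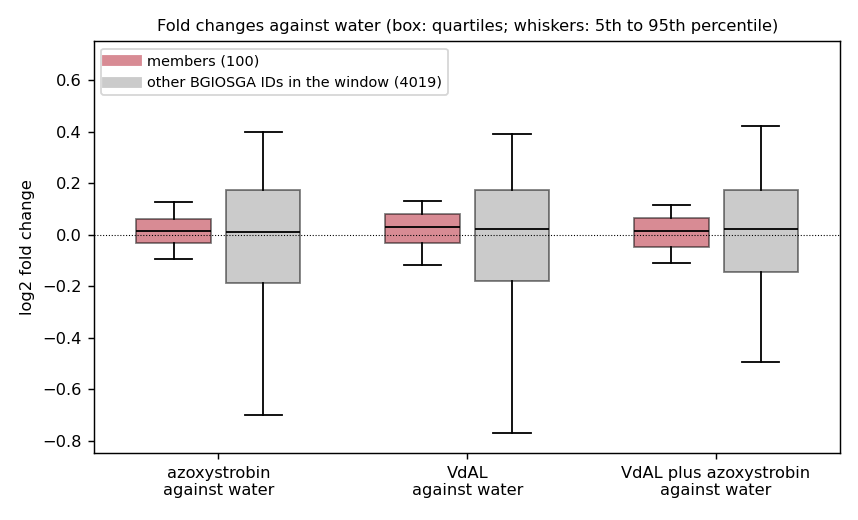
Log2 fold changes against water for the 100 members (red) and the other 4019 BGIOSGA IDs in the window (grey) in azoxystrobin, VdAL and the combination. Boxes show the quartiles and whiskers the 5th to the 95th percentile; the members' values all lie between −0.15 and 0.18, as their selection by low CV favours.

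The 95% intervals of these fold changes lay within 1.5-fold in either direction for all 100 members in each of the 6 comparisons between treatments. Among the other IDs this held for 69.2%, 69.4% and 72.2% in azoxystrobin, VdAL and the combination against water. Within 1.3-fold it held for 98, 100 and 98 members in the same comparisons. The choice by low CV over these libraries favours both small fold changes and narrow intervals, so these counts are descriptions. The test draws each gene's spread towards that of genes of similar level. The members' median quasi-dispersion was 0.125 from their own libraries and 0.397 after this adjustment, so their standard errors, with a median of 0.11 on the log2 scale, are wider than their own spread alone would give. That own spread is low by the same choice, so the members' intervals, here and below, may not hold their nominal 95%.

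For the members farthest from water the 95% interval of the fold change included 0. BGIOSGA025379 had the highest fold change in azoxystrobin, with 99.6, 98.96 and 92.7 CPM with azoxystrobin and 82.8, 85.7 and 88.0 CPM with water. The libraries did not overlap, and the log2 fold change was 0.18 (SE 0.11, 95% interval −0.04 to 0.41). It stood at 98.7, 91.1 and 89.3 CPM with VdAL and at 86.2, 93.3 and 90.4 CPM with the combination, between those of azoxystrobin and water on average.

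BGIOSGA004125 had the lowest fold change in both single treatments. Its levels were 112, 120.2 and 119 CPM with azoxystrobin, 124, 116 and 113 CPM with VdAL, 126, 112 and 123 CPM with the combination, and 125, 129.5 and 135 CPM with water. The azoxystrobin libraries and the VdAL libraries all lay below those of water, while the combination overlapped with water. The log2 fold changes were −0.15 in azoxystrobin (95% interval −0.37 to 0.08) and −0.14 in VdAL (95% interval −0.37 to 0.08), each with an SE of 0.11.

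BGIOSGA002594, already given as one of the last in the ranking, had the highest fold change in VdAL. Its levels were 134, 127 and 143 CPM with azoxystrobin, 144, 139.9 and 126 CPM with VdAL, 139.9, 139.9 and 135 CPM with the combination, and 127, 123 and 121 CPM with water. Of the treated groups the combination alone did not overlap with water. The log2 fold change in VdAL was 0.15 (SE 0.11, 95% interval −0.08 to 0.37).

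In the combination the highest fold change was that of BGIOSGA016957, with 120.1, 132 and 126 CPM with the combination and 111, 109 and 116 CPM with water. The log2 fold change was 0.17 (SE 0.11, 95% interval −0.05 to 0.39), and the libraries did not overlap. With VdAL it stood at 118, 127 and 117 CPM, also above every water library. Azoxystrobin, at 116.0, 127 and 118 CPM, overlapped with water, whose highest library was at 116.2 CPM. The log2 fold change was 0.11 in each single treatment. The lowest fold change in the combination was that of BGIOSGA017423. It had 58.4, 52.4 and 58.4 CPM with the combination and 62.7, 62.5 and 60.5 CPM with water. Here the combination lay below water in all libraries, with a log2 fold change of −0.14 (SE 0.11, 95% interval −0.37 to 0.10). These 5 IDs were taken as the extremes of 100, which favours a lack of overlap.

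Whether the low spread extends to libraries that played no part in the choice was read by making the list again on 11 libraries and measuring the 100 chosen genes in the library not used. TMM factors were kept from all 12 libraries. The other libraries of the same treatment stayed among the 11, so the library not used may not be independent of the choice. The chosen genes and the other IDs were not matched in level, here or in the readings below. In the library not used, the median absolute log2 deviation from the mean of the other 11 was 0.06 to 0.12 for the chosen genes and 0.09 to 0.19 for the other IDs in the window. It was lower for the chosen genes in 12 of 12 libraries. The average over libraries was 0.09 for the chosen genes and 0.15 for the other IDs, while the same chosen genes averaged 0.05 in libraries that had been used to choose them. The chosen genes deviated more in the library not used than in the libraries used in 12 of 12 lists. The chosen genes within 10% of their level elsewhere numbered 57 to 91 of 100, lowest in water replicate 1 and highest in combination replicate 1. In 0 of the 12 lists did a chosen gene deviate by more than 1.5-fold.

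**Figure D4:**
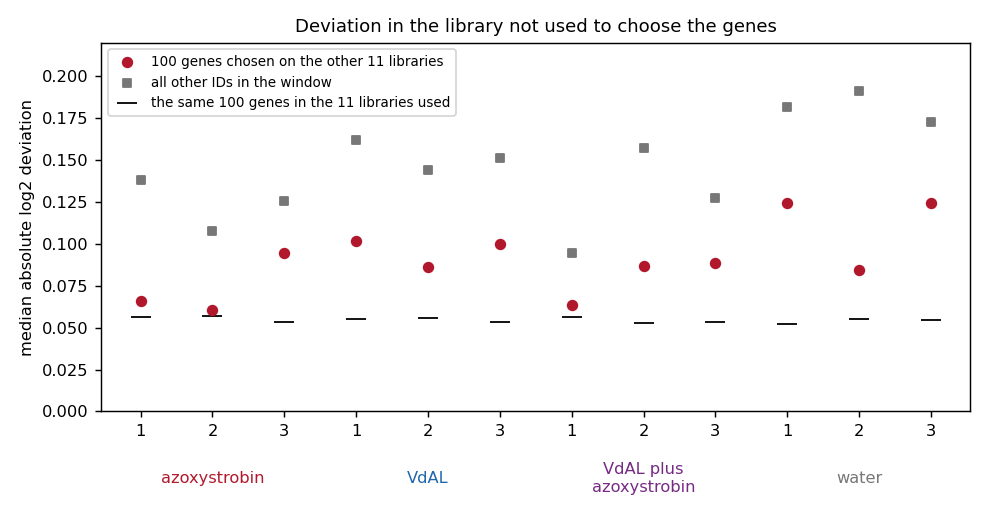
Median absolute log2 deviation, in each library, of 100 genes chosen for low CV on the other 11 libraries (red circles) and of all other IDs in the window (grey squares), with the average for the same 100 genes in the 11 libraries used (black marks). The chosen genes lie at 0.06 to 0.12, below the other IDs in 12 of 12 libraries and above the values in the libraries used.

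The same reading was made for whole treatments, with 100 genes chosen on the 9 libraries of the other 3 treatments. When azoxystrobin was not used, 91 of the chosen genes had an azoxystrobin mean within 10% of their mean in the other treatments, against 63.1% of the other IDs. The number was 94 for VdAL and 86 for the combination, against 62.6% and 60.1% of the other IDs. For water it was 69, against 49.4% of the other IDs. The chosen genes deviated by −0.17 to 0.20 in azoxystrobin, −0.18 to 0.15 in VdAL, −0.22 to 0.28 in the combination and −0.36 to 0.54 in water on the log2 scale. Their median deviation was 0.00, 0.01, −0.01 and −0.05, while that of the other IDs was −0.01, 0.00, 0.00 and −0.03. In the treatment not used, the median CV of the chosen genes was 5.87% for azoxystrobin, 7.15% for VdAL, 6.83% for the combination and 8.79% for water. That of the other IDs was 8.74%, 10.9%, 8.02% and 11.9%, so the gap was narrowest in the combination and water was highest in both sets. The corresponding lists shared 64, 62, 60 and 46 IDs with the 100 members. Whether water differed from the treatments in this was not tested.

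Several chosen genes averaged together, as in a panel of reference genes, were read in the same way. In the library not used, the log2 mean of the 100 chosen genes lay at −0.08 to 0.08 of its level in the other libraries, lowest in water replicate 3 and highest in VdAL replicate 3. For the 10 genes of lowest CV the range was −0.08 to 0.09, for the 3 of lowest CV −0.08 to 0.10, and for the single gene of lowest CV −0.10 to 0.07. The root mean square over the 12 libraries was 0.04 with 1 gene, 0.06 with 3, 0.05 with 10 and 0.04 with 100. The 1 gene was BGIOSGA003036 in every list, and its CV of 2.83% lay below its counting CV of 3.94%. Its low value follows from that choice, so these values do not show that 1 gene serves as well as a panel.

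Read together, the 100 members held 1.42% to 1.66% of the reads assigned to genes in a library (95% Wilson intervals 1.41% to 1.43% and 1.65% to 1.67%, which cover counting error only). That share was 1.60% ± 0.017 in azoxystrobin, 1.60% ± 0.062 in VdAL, 1.49% ± 0.063 in the combination and 1.49% ± 0.012 in water (SD, n = 3 each). After TMM scaling the members summed to 15508 ± 199 CPM with azoxystrobin, 15523 ± 286 CPM with VdAL, 15511 ± 214 CPM with the combination and 15411 ± 170.3 CPM with water (SD, n = 3 each). The unscaled share was higher in every azoxystrobin and VdAL library than in every water library, and VdAL overlapped with the combination. The TMM factors were 1.03 to 1.04 for azoxystrobin, 0.994 to 1.05 for VdAL, 0.926 to 0.987 for the combination and 0.952 to 0.982 for water. The scaled sums differed between treatments by less than the smallest of their SDs. With library sizes alone, without TMM factors, the members had median log2 fold changes of 0.11 for azoxystrobin, 0.12 for VdAL and 0.01 for the combination against water, and all tested IDs had 0.07, 0.08 and −0.02. In that scaling 93, 89 and 54 members lay above water, and 0 were called. The median of all IDs in the combination against azoxystrobin moved to −0.10 under it, and that of the members to −0.11.

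Which genes ranked as the steadiest depended on how level and spread were measured. The list made with RLE size factors shared 89 of its 100 IDs with the members, and that with upper-quartile factors 82. With library sizes alone it shared 45, and the members' own median CV was 7.003% in that scaling. Ranking by the standard deviation of log2 CPM kept 98 members, ranking by the CV beyond counting 78, and ranking by the median absolute deviation over the median 35. With all IDs of the window admitted, the 29 starting with EPlOING included, the list kept all 100 members. This was settled beforehand, since 0 of those 29 had a CV at or below 6.13%. Leaving out each library in turn, with every step repeated on the other 11, gave lists that shared 69 to 88 members, and 52 members were on all 12 of these lists. The lowest number was found without water replicate 1.

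**Figure D5:**
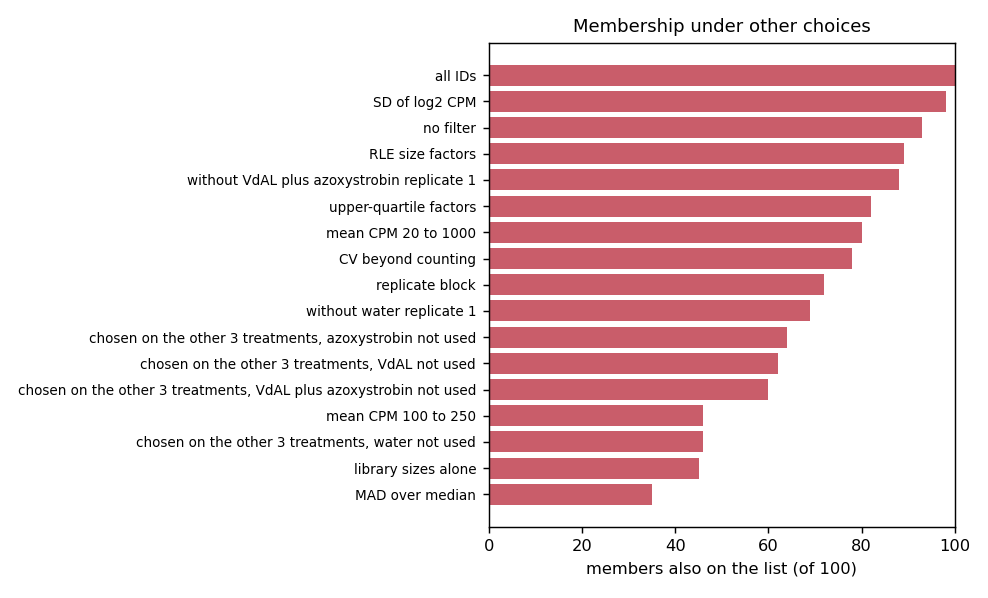
Number of the 100 members also on the list of 100 lowest-spread IDs under other choices of scaling, measure of spread, level window, filter or libraries (bars from 0). The 2 lists made without 1 library mark the ends of the range of 69 to 88, and the fewest shared members, 35, come with the median absolute deviation; the window of 100 to 250 CPM leaves out 54 members by their level.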

How the data were processed

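The authors deposited a table of raw read counts per gene ID for each of 12 leaf libraries, closed by 5 rows of unassigned reads. Per the submitters' processing notes the tools were TopHat2 2.1.0, HTSeq 0.6.1 and edgeR 3.16.3, without order or settings. The notes also name a pig genome build that the rice gene IDs do not bear out. The annotation release, counting mode and strand setting are not given in these sources, so reads of overlapping genes may not be told apart, and no coordinates are given. The closing rows were left out of library sizes. Reads outside any gene were 42.2% to 49.6% of those recorded and reads not aligned uniquely 9.01% to 22.4%.

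Samples were grouped by the labels' treatment. IDs were filtered with filterByExpr by treatment (minimum count 10) and scaled by TMM in edgeR 4.0.16 (R 4.3.3). The counting CV given in the text used the library sizes after this filter, multiplied by the TMM factors. The counting variance was taken at the ID's scaled level in each library and averaged over the 12 libraries. Its square root was divided by the ID's mean level. glmQLFit and glmQLFTest were run on a model of group means over all 12 libraries. P-values were two-sided and adjusted over 21381 IDs, and SEs were the log2 fold change divided by the square root of F. The procedure was tested on simulated data, in which the stable genes had no spread beyond counting. Most members had more spread than that, so the simulation does not show how well such genes are found. Alternatives were RLE, upper-quartile and no factors, no filter, DESeq2 1.42.0, each library left out, a replicate block and a covariate for the share of non-uniquely aligned reads. Further lists admitted all IDs of the window, were chosen on 3 treatments, or used other windows and other measures of spread.

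The members and the rules were chosen with earlier results of these data known. Named are the 6 members of lowest CV, those of rank 50, 99 and 100, the 2 IDs just outside, those of lowest and highest mean level, and those of highest and lowest fold change per treatment against water. Within treatments 0 of 12 library pairs agreed within sampling noise (lowest chi-square per degree of freedom 4.24).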

Additional observations from a re-analysis of the deposited data

How the results depend on the processing

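Compared with the 100 members, a list made with library sizes alone shared 45, one ranked by median absolute deviation 35 and one from a window of 100 to 250 CPM 46. Lists chosen on 9 libraries shared 64 without azoxystrobin, 62 without VdAL, 60 without the combination and 46 without water. Lists made without 1 library shared 69 to 88. Lists without a filter, from a window of 20 to 1000 CPM and from the other scalings shared 80 to 93, and 14 members were on every list other than that of the narrow window. With library sizes alone the scale itself moved, which is how that list was built. The window of 100 to 250 CPM left out 54 members by their level and kept the other 46. For the other lists the cause was not tested.

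The number of members called stayed at 0 in all 76 counts, which are 4 tests under 19 alternatives. Over these the share of all IDs called ran from 0.594% to 5.15% for azoxystrobin, 0.665% to 5.93% for VdAL and 0.501% to 3.52% for the combination against water, each lowest without replicate 3 of the treated group and highest with DESeq2. For the 4-treatment test it ran from 1.65% without water replicate 1 to 8.13% with DESeq2. Fold changes of the 15 named members moved by less than their replicate SD in 822 of 855 values, and 30 of the other 33 came with library sizes alone. No pairing of the replicate numbers across treatments is stated. Deviations of same-numbered libraries correlated at −0.20 to 0.10 in 18 pairs, 1 of them above 0.1, and 3 of 12 libraries were closest to their own number. With the replicate block the list shared 72 members and 0 were called.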
